A study of Drosophila melanogaster with 3 samples.

Results

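The bithorax complex holds the 3 posterior Hox genes of Drosophila melanogaster, Ubx, abd-A and Abd-B, on the right arm of chromosome 3 (3R). Its binding sites for the CG33213-eGFP fusion protein were taken as every peak of the optimal list (the reproducible peaks of the pooled replicates) with its summit from 50 kb below the lowest to 50 kb above the highest coordinate of these 3 genes. That window covers chr3R:16606623-17022236 (dm6) and held 14 of the 4417 optimal summits. Within the complex itself, chr3R:16656623-16972236, from the 3′ end of Ubx to the most distal 5′ end of Abd-B, there were 9. The data come from chromatin immunoprecipitation and sequencing (ChIP-seq) against GFP. The labels' antibody entry gives CG33213 instead. The chromatin came from whole embryos of mixed sex, 0 to 24 h old, of a transgenic line stably expressing CG33213 with eGFP fused to its C terminus, sonicated to 200 to 800 bp. There were 3 biological replicates of this single group and no comparison between conditions, and the control experiment named by the labels was not analysed here. Whole embryos mix segments in which each Hox gene is on with segments in which it is silent, so binding in the ON and the OFF state cannot be told apart. Peak lists without read counts were used, so the sequencing depth is unknown.

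Hox genes give body segments their identity, and in the bithorax complex Ubx acts in the posterior thorax and anterior abdomen, abd-A in the middle abdomen and Abd-B in the posterior abdomen. Long stretches of regulatory DNA between and inside the genes are divided into domains, each active from a particular parasegment onwards. Boundary elements such as Fub, Mcp, Fab-7 and Fab-8 keep neighbouring domains apart and are bound by insulator proteins, among them CTCF, Cp190, Pita and the GAGA factor. Polycomb response elements, bound by Pho and the Polycomb complexes, keep domains silent where they are not in use. The annotation used here marks none of the boundary elements or Polycomb response elements, so sites are placed by their distance to annotated genes and are not assigned to a named element.

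The 14 sites are numbered 1 to 14 by coordinate, with sites 2 to 10 inside the complex. For each site in the complex the summit and 50 bp on each side of it are printed from the plus strand of the RefSeq dm6 sequence, with matches to any of 11 consensus words in capitals. Sites 4, 7 and 9 come first because they hold the CTCF core word AGNNGGCGC. Sites 7 and 9 carry it on the minus strand. The 3 sequences lie at chr3R:16748704-16748804, chr3R:16857155-16857255 and chr3R:16919213-16919313. The shorter block in capitals of site 4 is the Pho core GCCAT, which also overlaps the CTCF match on the minus strand, and that of site 9 is the GAGA word GAGAG read on the minus strand.
site 4: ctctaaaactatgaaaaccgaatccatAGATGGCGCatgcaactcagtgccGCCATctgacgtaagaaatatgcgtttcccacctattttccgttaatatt
site 7: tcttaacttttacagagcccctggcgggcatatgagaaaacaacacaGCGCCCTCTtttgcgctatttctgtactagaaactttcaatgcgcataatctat
site 9: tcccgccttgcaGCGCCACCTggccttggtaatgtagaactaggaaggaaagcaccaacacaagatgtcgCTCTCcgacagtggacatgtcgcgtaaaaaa
Site 6 is shown as the strongest site of the window by a wide margin. Its sequence is chr3R:16798822-16798922, and the capitals mark GAGAG on the minus strand.
site 6: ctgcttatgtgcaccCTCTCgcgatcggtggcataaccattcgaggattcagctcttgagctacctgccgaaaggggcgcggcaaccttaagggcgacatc
The other 5 sites are shown for comparison with these 4. Sites 2, 3, 5, 8 and 10 lie at chr3R:16704372-16704472, chr3R:16718085-16718185, chr3R:16769578-16769678, chr3R:16869360-16869460 and chr3R:16957894-16957994. Capitals mark a TATA word, TATAAA, in site 2 and the Su(Hw) core TGCATA in site 3, while sites 5, 8 and 10 hold none of the words searched.
site 2: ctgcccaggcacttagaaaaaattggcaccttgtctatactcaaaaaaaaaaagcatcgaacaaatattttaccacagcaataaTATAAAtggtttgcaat
site 3: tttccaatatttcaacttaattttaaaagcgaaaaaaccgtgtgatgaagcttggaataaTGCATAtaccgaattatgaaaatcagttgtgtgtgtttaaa
site 5: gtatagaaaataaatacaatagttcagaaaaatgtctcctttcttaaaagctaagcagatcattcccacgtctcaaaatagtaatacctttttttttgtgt
site 8: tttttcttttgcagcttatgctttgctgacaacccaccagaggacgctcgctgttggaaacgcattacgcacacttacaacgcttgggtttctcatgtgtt
site 10: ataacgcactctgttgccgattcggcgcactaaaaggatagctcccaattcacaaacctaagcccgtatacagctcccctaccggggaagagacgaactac

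None of the 3 Hox genes had an optimal summit at its own promoter. Bound here means that at least 1 annotated transcription start site (TSS) of the gene has an optimal summit no more than 500 bp away, which holds for 20.7% of the 18164 annotated genes. Ubx (FBgn0003944, chr3R:16656623-16734426, minus strand) has 1 TSS, and the nearest optimal summit, site 4, lay 14328 bp away. For abd-A (FBgn0000014, chr3R:16807214-16830049, minus strand, 3 TSSs) the nearest was site 7, at 27156 bp. Abd-B (FBgn0000015, chr3R:16927212-16972236, minus strand, 6 TSSs) was closest, with site 10 in its intron 2337 bp downstream of the TSS at 16960281. With 3 members and a background of that size, a count of 0 sets the Hox genes apart from no other group.

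At lower signal, summits did appear at 2 of the 3 genes. The pooled relaxed list, 30000 peaks and background entries from the pooled replicates, has a summit within 500 bp of a TSS for 49.3% of all genes. It placed 2 at abd-A. The stronger, at 16829263 and rank 6577, was 489 bp downstream of the TSS at 16829752, and the nearest summits of replicates 1, 2 and 3 lay 166, 111 and 27 bp from it at ranks 9443, 24103 and 7561. The other, at 16829944 and rank 13161, was 105 bp from the TSS at 16830049, and replicates 1, 2 and 3 had summits 88, 2 and 55 bp from that TSS at ranks 23401, 21588 and 8251. With 150 bp as the matching distance, the abd-A summit at 16829944 was found in all 3 replicates. The stronger one at 16829263 was found in only 2, because the nearest summit of replicate 1 lay 166 bp from it. Replicate ranks were low and uneven for both. At the Abd-B TSS at 16934242 the pooled summit lay 446 bp away at rank 17754. There, replicates 1 and 2 had summits 442 and 444 bp away at ranks 9414 and 11562, whereas the nearest of replicate 3 was 14668 bp away. For Ubx the nearest pooled summit was 3072 bp from the TSS, and replicates 1, 2 and 3 had theirs at 8219, 1035 and 281 bp with ranks 26538, 29610 and 12545. All of these summits rank below the 4417 strongest of their lists, the strongest pooled one being that at abd-A with rank 6577.

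**Figure D1:**
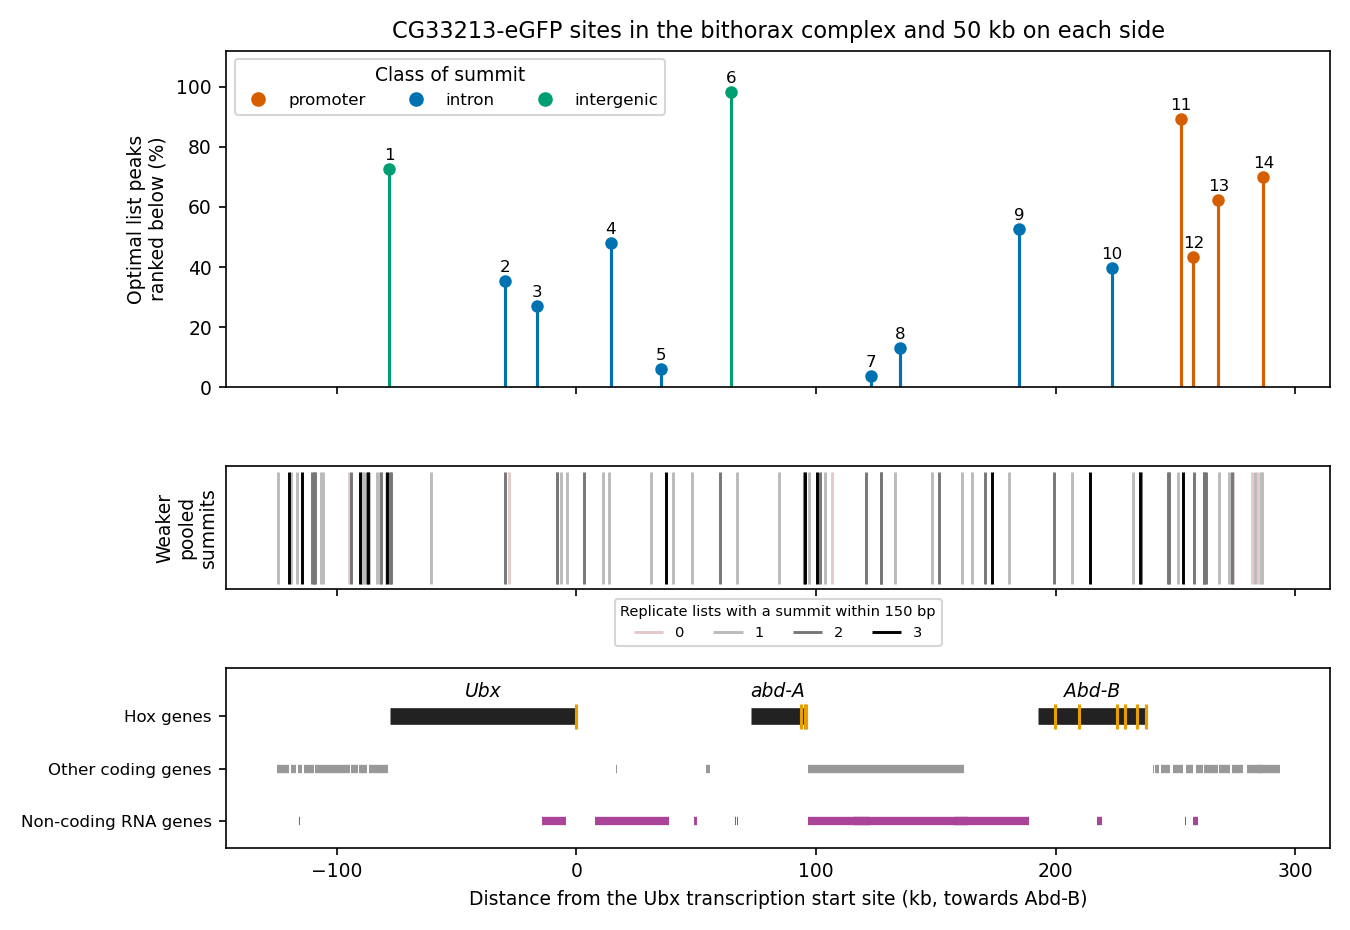
Optimal sites (top), weaker pooled summits (middle) and annotated genes (bottom) against the distance from the Ubx TSS in kb, positive towards Abd-B. Stems give the percentage of the 4417 optimal peaks ranked below each site, tick shades give the number of replicate lists with a summit within 150 bp, and orange marks are TSSs of the Hox genes. Site 6 stands highest of the 14, abd-A holds no optimal site, and the 4 promoter sites all lie above Abd-B.

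The strongest site of the window lay in the space between Ubx and abd-A. Site 6, with its summit at 16798872 in a peak spanning chr3R:16798730-16799033, ranked 83 of 4417 by the signal the authors' peak caller gave, which was used only to order peaks within a list. The 3 replicates placed it at ranks 92, 91 and 80 of their own lists, a spread of 1.15 times between the weakest and the strongest placing. It was the closest agreement among the 14 sites. The summit was 64446 bp upstream of the Ubx TSS and 29233 bp from the nearest abd-A TSS, beyond the 3′ end of that gene. The nearest annotated genes are Glut3, a sugar transporter gene, 8851 bp below it, and the non-coding lncRNA:CR45750, whose TSS is 1728 bp above it. Among distal sites, meaning optimal summits more than 500 bp from any TSS, site 6 was the 30th strongest of 1560. It was the 11th of 462 intergenic summits and the 23rd of the 1061 summits on 3R.

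The Ubx transcription unit, 77.8 kb long, held sites 2 and 3, both in introns. Site 2 (summit 16704422, optimal rank 2849) is in the last intron, 51488 bp long and 3 of 3, at 30004 bp from the TSS. Its replicate ranks of 5316, 3481 and 1846 differed by up to 2.88 times, the widest spread of the 14. Site 3 (summit 16718135, optimal rank 3227), in intron 2 of 3, was 16291 bp from the Ubx TSS and 1992 bp from a TSS of the antisense transcript asRNA:PS4. Replicates 1, 2 and 3 ranked it 4434, 3916 and 3776, so its placing was low but even.

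Upstream of Ubx, sites 4 and 5 fell in introns of lncRNA:bxd, a long non-coding RNA transcribed from the bxd regulatory region. Site 4 (summit 16748754, optimal rank 2299) had replicate ranks of 2067, 2034 and 4196. It was 2368 bp from the lncRNA:bxd TSS at 16746386 and 2580 bp from the TSS of the small coding gene CG31275. Site 5 (summit 16769628, optimal rank 4143) had replicate ranks of 4526, 2904 and 7382 and lay 3561 bp from another lncRNA:bxd TSS. Of this pair, site 4 was the stronger in each replicate.

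Between abd-A and Abd-B, sites 7, 8 and 9 all fell in introns of lncRNA:iab8, a long non-coding RNA that runs across the infra-abdominal domains, and the first 2 also in introns of MSAmiP, a micropeptide gene of the same transcription unit. Site 7 (summit 16857205, optimal rank 4258) was 863 bp from the start of mir-iab-8 and 930 bp from that of mir-iab-4, microRNA genes on opposite strands of 1 hairpin whose products repress Hox genes. Its replicate ranks were 5233, 2979 and 8456. Site 8 (summit 16869410, optimal rank 3845) lay 13068 bp from mir-iab-8 and ranked 3583, 4363 and 3577, within 1.22 times of each other. Site 9 (summit 16919263), the second strongest of the complex at optimal rank 2087, was in intron 1 of 7 of lncRNA:iab8, 3864 bp downstream of its TSS at 16923127 and 14979 bp from the nearest Abd-B TSS. The replicates ranked site 9 at 2784, 2644 and 2162. Site 9 therefore stood above site 7 in all 3 replicates, and its ranks did not overlap those of site 8 either.

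Abd-B held 1 optimal site, site 10 (summit 16957944), at optimal rank 2665 and at 3826, 2763 and 2429 in the replicates. A further summit in Abd-B, at 16948933, ranked 3719 in replicate 1, had no optimal peak within 150 bp and was among the 4417 strongest of that replicate only. The abd-A transcription unit, 22.8 kb long, held none, either in the optimal list or among the 4417 strongest peaks of any replicate. It sat in the widest space between neighbouring sites of the complex, 58333 bp from site 6 to site 7. Spaces between sites within the complex ran from 12205 bp with a median of 29931.5 bp. Across all arms the median space between neighbouring optimal summits was 10903 bp, and 13.0% of 4411 spaces were at least as wide as that around abd-A.

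**Figure D2:**
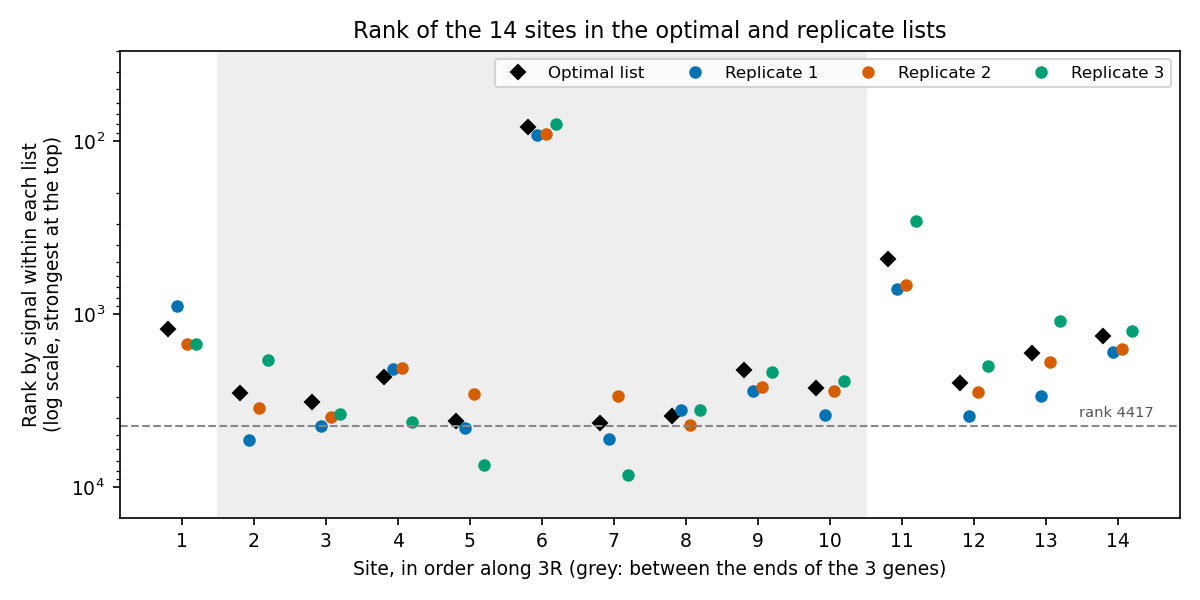
Rank by signal of each of the 14 sites in the optimal list (diamonds) and in replicates 1 to 3 (circles), on a log scale with the strongest at the top. Site 6 lies at ranks 80 to 92 in all 4 lists, and replicate ranks of sites 2, 3, 5 and 7 cross the dashed line at rank 4417.

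In the optimal list the flanks differ from the complex and from each other. Below Ubx, site 1 (summit 16656297) fell between genes, 326 bp beyond the 3′ end of Ubx and 635 bp from the TSS of modSP, a serine protease gene of the Toll pathway. Its optimal rank was 1216, and replicates 1, 2 and 3 placed it at 892, 1486 and 1492. Above Abd-B, all 4 sites were at promoters. Site 11 (optimal rank 478) was 194 bp from a TSS of CG18622. Site 12 (rank 2507) lay between the starts of EMC2B, a subunit gene of the endoplasmic reticulum membrane complex, at 57 bp, and lncRNA:CR45221, at 43 bp. Site 13 (rank 1671) was 36 bp from the TSS of Sf3a1, a splicing factor gene, and 484 bp from that of Irc, a catalase gene. Site 14 (rank 1329) was 43 bp from the TSS of Adsl, the adenylosuccinate lyase gene of purine synthesis, which lies within an intron of the peroxidase gene Pxd. Replicate ranks were 712, 673 and 289 at site 11, 3852, 2819 and 1997 at site 12, 2948, 1882 and 1096 at site 13 and 1642, 1594 and 1247 at site 14, so replicate 3 placed each of the 4 highest. In the complex 0 of 17 genes were bound, against 6 of the 33 flanking genes (18.2%) and 20.7% of all genes. The 6 bound flanking genes all lay above Abd-B. Some of the 17 genes overlap one another, and the difference was not tested.

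The 9 sites in the complex, all distal, had a median optimal rank of 2849, against 2372 for all 1560 distal summits. For the 4403 optimal summits outside the window, promoter ones included, the median was 2208. The 5 flanking sites had a median of 1329. Of the 9 sites, 2 ranked above the median of the whole list, sites 6 and 9. A site was counted as found in a replicate when one of that replicate's 4417 strongest summits lay within 150 bp. Of the 14 sites, 10 were found in all 3 replicates (71.4%), against 62.4% of all 4417 optimal summits. That count comprised all 5 flanking sites and 5 of the 9 in the complex (55.6%), sites 4, 6, 8, 9 and 10. Among all 1560 distal sites the share was 58.9%. In the full relaxed lists every one of the 14 sites had a summit within 150 bp in all 3 replicates, as did 96.5% of the 4403 sites outside the window. Of the 42 replicate summits, 35 lay within 25 bp of the optimal summit, and the farthest lay at 71 bp. Sites 2, 3, 5 and 7 thus missed the count of sites found in all 3 replicates by a replicate rank below 4417, not by a missing summit. Site 3 missed it narrowly, at rank 4434 in replicate 1.

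The class of binding site in the complex differed from that in the rest of the arms. Of the 14 sites in the window 4 (28.6%) were at promoters, against 64.7% of all 4417 optimal summits. None of the 9 in the complex was, in the optimal list or among the 4417 strongest peaks of any replicate. Over the 3 replicates the promoter share in the window was 37.5% ± 4.87, and in the whole lists 64.0% ± 1.04 (SD, n = 3). Few genes start in the complex, which has 38 TSS positions in 315.6 kb, so promoter sequence makes up 26410 of its 315614 bp. In that sequence there were 0 promoter summits, against 15.8 per 100 kb of promoter sequence in the rest of the arms.

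Counting all optimal summits together, the complex was no denser than the rest, with 2.85 summits per 100 kb against 3.30. Each replicate's 4417 strongest peaks gave 6, 9 and 7 summits in the complex, or 2.32 ± 0.484 per 100 kb (SD, n = 3). Outside promoters the order turned round. Distal optimal summits numbered 3.11 per 100 kb of non-promoter sequence in the complex, against 1.34 in the rest, a ratio of 2.32. In replicates 1, 2 and 3 that ratio was 1.54, 2.30 and 1.71, with distal densities of 2.54 ± 0.528 per 100 kb in the complex and 1.37 ± 0.0400 in the rest (SD, n = 3). The lowest replicate value in the complex, 2.08, was above the highest in the rest, 1.42. The rest is an average over 115448015 bp, so its spread does not show how much regions of 315.6 kb vary. The distal ratio was also chosen after seeing the data. No test was made, because the replicates form a single group and the sites of a region are not replicates. With the optimal summits of lower signal left out, 50% of the list, the ratio was 1.10, since only 2 of the 9 sites remained.

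**Figure D3:**
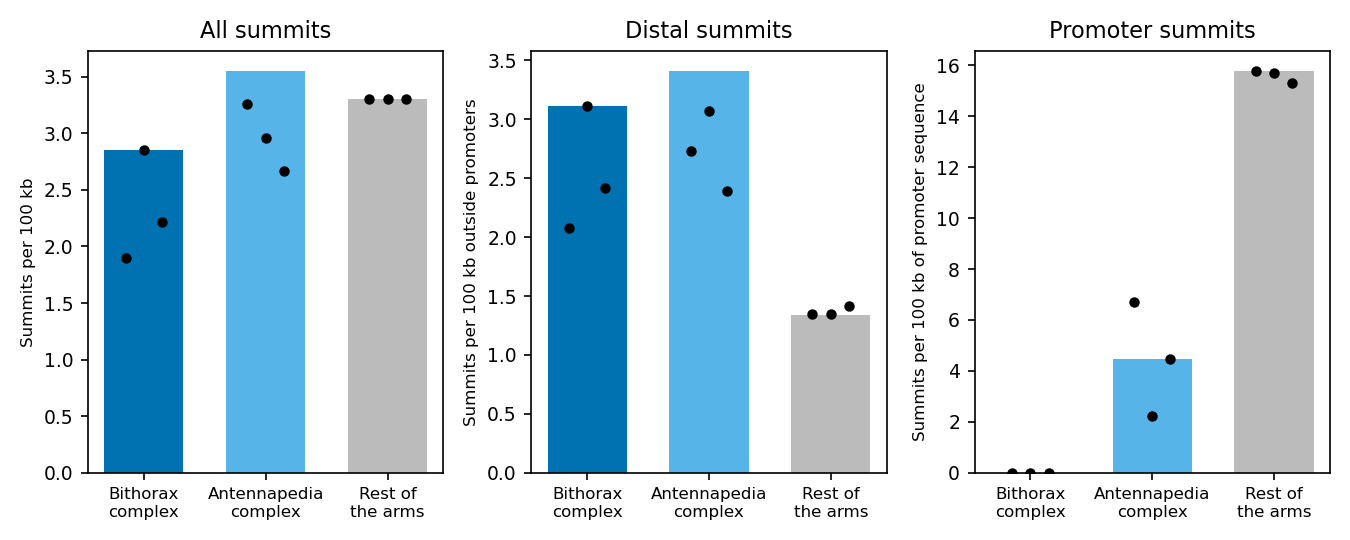
Summits per 100 kb of all sequence (left), of sequence more than 500 bp from any TSS (middle) and of promoter sequence (right) in the bithorax complex, the Antennapedia complex and the rest of the arms. Bars give the optimal list and points the 4417 strongest peaks of replicates 1 to 3. In the middle panel the 3 bithorax points lie above the 3 points of the rest, which is an average over the arms.

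Across the 6 arms, 420 consecutive windows of the length of the complex put its counts in proportion. The 9 distal summits of the complex were matched or exceeded in 33 windows (7.86%), where the median was 3 and the highest 21. These windows run along whole arms and include runs with few or no summits, which were not left out. For all optimal summits, 247 windows (58.8%) held at least 9, and the median was 10. Starting the windows at another offset gave 33 of 417 (7.91%) for distal summits. The distal count of the complex was thus towards the upper end of the windows but shared by others.

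**Figure D4:**
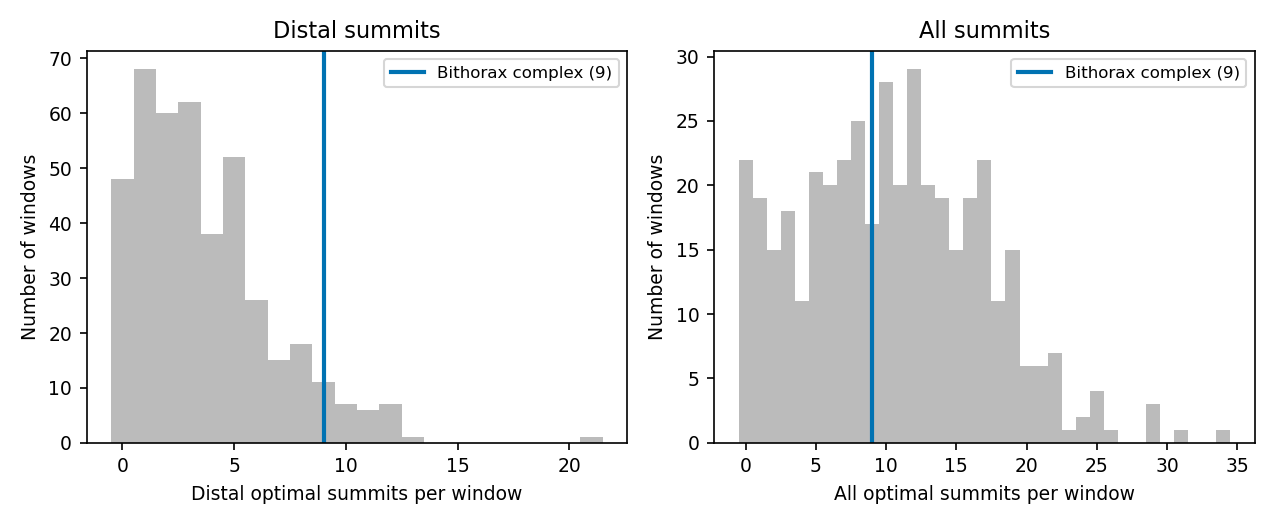
Number of windows of 315.6 kb by the distal (left) and all (right) optimal summits they hold, with the 9 summits of the bithorax complex marked by a line. The line lies in the upper tail of the distal counts and near the middle of the counts of all summits.

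The Antennapedia complex, the anterior Hox cluster on the same arm, was alike in this respect. The bithorax complex held 9 optimal summits with a median rank of 2849, and the Antennapedia complex 12, 2 of them at promoters, with a median rank of 2857.5. Distal density was 3.11 per 100 kb in the bithorax complex, against 3.41 in the Antennapedia complex, where the ratio to the rest of the arms was 2.54. Over the replicates that ratio was 1.85 ± 0.399 in the bithorax complex and 2.00 ± 0.295 in the Antennapedia complex (SD, n = 3), which differ by less than the spread between replicates. The strongest site differed, at rank 83 in the bithorax complex, against 393 in the Antennapedia window.

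Weaker sites filled in some of the spaces. The pooled relaxed list held 84 more summits in the window, 42 in the complex and 42 in the flanks, that were not within the optimal list. Of the 42 in the complex, 6 (14.3%) had a summit within 150 bp in all 3 relaxed replicate lists, against 19.6% of all 25580 weaker pooled summits. A further 14 were found in 2 replicates, 20 in 1 and 2 in none. By class, 25 of the 42 were in introns and 5 (11.9%) at promoters, against 26.8% at promoters among all weaker summits. The share found in all replicates was thus near or below the background, and most weaker entries in the complex rest on 1 or 2 replicates.

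The 6 weaker sites found in all 3 replicates lay around abd-A, Abd-B, lncRNA:bxd and lncRNA:iab8. The strongest, with its summit at 16834842 (pooled rank 6429), was 4793 bp upstream of abd-A and ranked 7130, 6981 and 17445 in the replicates. Within Abd-B there were 2, at 16969774 (rank 6884; replicates 8261, 6574 and 6260) and at 16948901 (rank 7177; replicates 3719, 23126 and 9908). The first of these was even between replicates, whereas the second rested mainly on replicate 1. In lncRNA:bxd the summit at 16771757 (rank 8776) ranked 5525, 29698 and 16824, and in lncRNA:iab8 the summit at 16908080 (rank 8927) ranked 7195, 9908 and 27901. The sixth was the abd-A promoter site at 16829944. None of the 6 lay in Ubx, where 8 weaker summits were listed.

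By stretch, the 72.8 kb between Ubx and abd-A and the 97.2 kb between abd-A and Abd-B held 3 optimal sites each. In both of these stretches replicates 1, 2 and 3 had 2, 3 and 2 summits among their 4417 strongest. The Ubx unit held 0, 2 and 2 such summits, Abd-B 2, 1 and 1, and abd-A 0 in each replicate. Weaker pooled summits numbered 9 between Ubx and abd-A, 16 between abd-A and Abd-B, 6 in Abd-B, 3 in abd-A, 25 below Ubx and 17 above Abd-B. The gene-dense flanks, with 42.0 and 44.0 TSS positions per 100 kb, thus held as many weaker summits in 100 kb as the whole complex did in 315.6 kb.

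Of the 11 non-coding RNA genes of the complex, 0 were bound at their starts, against 20.7% of all genes. With so few genes, that count does not set them apart from other genes. The nearest optimal summits were those described for mir-iab-8, mir-iab-4, lncRNA:CR45750, asRNA:PS4 and lncRNA:bxd, then 2427 bp for lncRNA:TS16 and 3864 bp for lncRNA:iab8. For lncRNA:CR46267 in Abd-B the distance was 6037 bp and for lncRNA:iab4 6967 bp, while lncRNA:CR44945 and lncRNA:CR43617 were 13869 and 23000 bp away. The other coding genes of the complex were CG31275, Glut3 at 10561 bp and MSAmiP at 22970 bp. In the pooled relaxed list 4 of the 17 genes of the complex (23.5%) had a summit within 500 bp of a TSS, namely abd-A, Abd-B, lncRNA:TS16 and lncRNA:iab8. The share was 72.7% in the flanks, with 24 of 33 genes, and 49.3% over all genes.

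Lists of genes related to the complex were also counted. No promoter of the 5 Hox genes of the Antennapedia complex was bound, nor of the Hox cofactor genes exd and hth. The same held for 7 early patterning genes that set the early limits of Hox expression. With so few genes in each of these lists, counts of 0 do not set them apart from other genes. Of 18 genes for boundary and Polycomb-response-element proteins 10 were bound, against 20.7% of all genes, non-coding ones included. They included CTCF (32 bp from a TSS, rank 1063), the zinc-finger insulator protein, and Cp190 (57 bp, rank 659), its partner at insulators. For the GAGA factor gene Trl the summit lay at 109 bp (rank 870), for the Polycomb recruiter gene pho at 379 bp (rank 558), for Pc, the chromodomain subunit gene of Polycomb repressive complex 1, at 69 bp (rank 983), and for the GA-binding zinc-finger gene Clamp at 92 bp (rank 479). The insulator protein genes pita (115 bp, rank 1997) and BEAF-32 (27 bp, rank 3274) were bound as well. The summits at mod(mdg4) (rank 2965) and zeste, symbol z (rank 4191), were each found in 1 replicate among its 4417 strongest. The genes su(Hw), ZIPIC, Ibf1, Ibf2, insv, Elba1, Elba2 and Elba3 were not bound.

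Consensus words were compared between the bithorax sites and all sites. Each word was searched on both strands of the same stretch around each summit and, for comparison, in the window moved by 500 bp towards higher coordinates. The CTCF core AGNNGGCGC was found at 3 of the 9 sites in the complex and at no flanking site, against 3.06% of all 4417 sites and 4.62% of distal sites. The moved windows held it at 0 of the 14 sites and at 1.20% of all. It lies at −23 to −15 bp from the summit in site 4, at −3 to 5 bp in site 7 and at −38 to −30 bp in site 9. These 3 sites sit in the bxd region, beside the mir-iab-8 hairpin and near the start of lncRNA:iab8. A count of 3 in 9 is small and was not tested, and a word match is not evidence that CTCF binds there.

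GAGAG, the GAGA factor word, was found at sites 6 and 9, which makes 2 of 9, against 11.1% of all sites and 13.1% of distal ones. The Pho core GCCAT occurred in site 4 and in sites 11 and 13, or 3 of 14, against 18.1% of all sites, and the moved windows of the 14 sites held it at 4. The Su(Hw) core TGCATA occurred in sites 3, 11 and 12, against 7.31% of all sites, and TATAAA in sites 2 and 14, against 13.5%. For these words the bithorax counts are too few to set apart from the shares in all sites. No site held the Zeste word TGAGTG, the DNA replication-related element TATCGATA, which contains the BEAF-32 word, the Insensitive word CCAATTGG or the ELBA word CCAATAAG. These occur at 3.71%, 4.84%, 0.362% and 0.317% of all sites. The motif 1 word GGTCACACT was found in site 14 only, against 3.40% of all sites.

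The BEAF-32 word CGATA was present at 0 of 9 sites in the complex and at 4 of 5 flanking sites, sites 1, 12, 13 and 14, of which the last 3 are promoter sites. It occurs at 25.2% of all 4417 sites, 13.0% of distal sites and in 528 of the 4417 moved windows, so a count of 0 among 9 distal sites is near the background. The 6-base words most over-represented at summits outside the window were also counted. Ranked by the ratio of their share at the summits to their share in the moved windows, these were CGATAG with a ratio of 4.43, TATCGA with 3.74, ACACTG with 3.47, ATCGAT with 3.29 and ACTATC with 2.84. The first 2 contain the BEAF-32 word on one strand or the other, so their matches partly repeat those of CGATA. Any of the 5 occurred at 30.8% of the summits outside the window, 37.8% of the promoter ones and 18.1% of the distal ones, and in 12.3% of their moved windows. In the complex 0 of 9 sites held any of them, and in the window 3 of 14 did, sites 1, 13 and 14. At the distal share of 18.1%, a count of 0 in 9 sites is not far from the background.

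**Figure D5:**
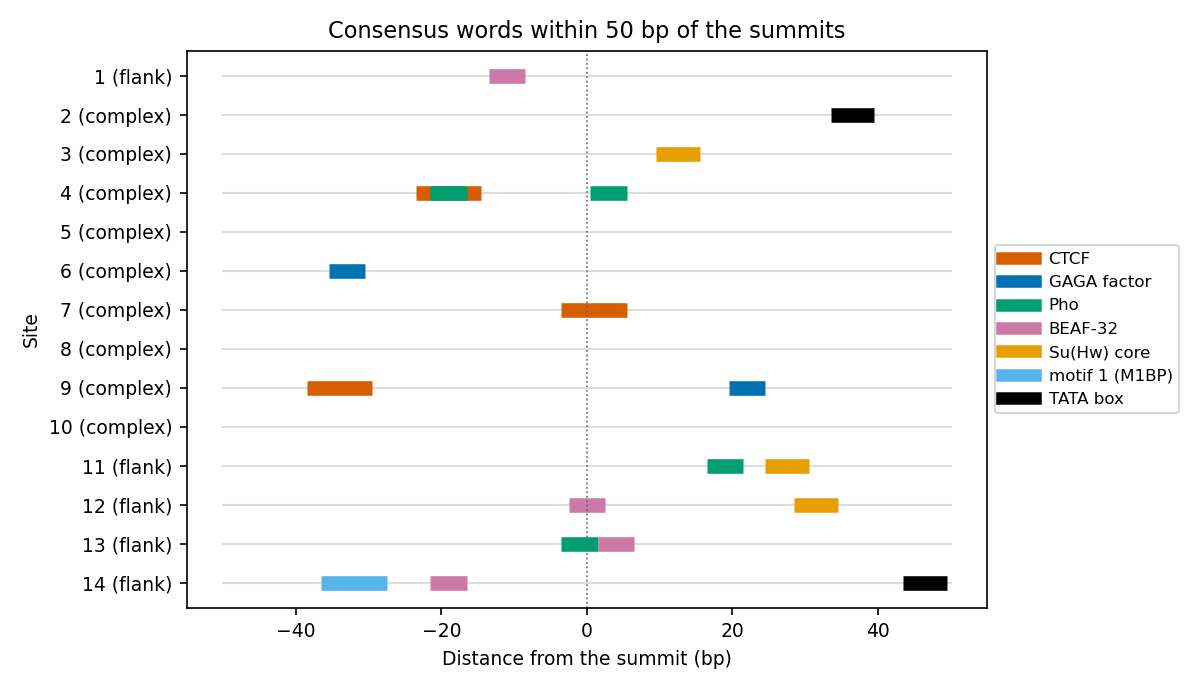
Positions of consensus words within 50 bp of the summits of the 14 sites, on the plus strand in bp. CTCF words (orange) are at sites 4, 7 and 9 of the complex, BEAF-32 words (pink) are at flanking sites only, and sites 5, 8 and 10 hold no word.

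Base composition varied along the complex. The GC content within 50 bp of the summit was 57.4% at site 6, 52.5% at site 9, 51.5% at site 10 and 46.5% at site 8. Sites 7 and 4 had 42.6% and 41.6%. It was lowest at the Ubx sites and site 5, with 32.7% at site 2 and 28.7% at sites 3 and 5. The median of the 9 sites was 42.6%, against 35.6% for distal sites and 40.6% for promoter sites of all arms. How far the presence of GC-rich words follows from this composition was not tested.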

How the data were processed

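ChIP-seq peak lists of 3 biological replicates of 1 group were used, in narrowPeak format on dm6. Per the deposited file lists, relaxed lists of peaks and background came from each replicate and from the pooled replicates with a control file, and the optimal list was thresholded by the irreproducible discovery rate. For the aligner, peak caller and threshold, names and settings were not given in the sources used here. Each peak carries a signal value deposited by the authors, which served only to rank peaks within a list. The 4417 optimal peaks carried the same signal and rank in the pooled list of 30000, so the optimal list is not independent of the pooled one. Depth is unknown, so no counting interval is given.

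Genes and TSSs were taken from BDGP6.54 of Ensembl release 115 (18164 genes, 23581 TSS positions, transposable elements left out), and sequence from the RefSeq dm6 assembly. Summits were placed and matched within 150 bp with Python 3.11.15, pandas 2.3.3 and numpy 2.4.6, and figures were drawn with matplotlib 3.10.9. The placing, matching and word search were checked on simulated data. No test was made, because there is 1 group. Unless stated otherwise, replicate densities, promoter shares and counts of optimal sites found in replicates use the 4417 strongest peaks of each replicate. Replicate ranks and distances, and the matching of weaker sites, use the full relaxed lists.

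The members, gene lists, words and comparisons were chosen with earlier results of these data known. The named genes are the 3 Hox genes, all genes within the complex, and the genes bound by, hosting or flanking a site. Promoter and matching distances, flank, list strength and each replicate were varied.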

Additional observations from a re-analysis of the deposited data

How the results depend on the processing

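Counts in the window depended on the flank and the strength of the list. The 14 sites became 9 with no flank and 6 among the 50% of optimal peaks with higher signal. The ratio of summit density in the window to that in the rest, 1.02, was 0.864 with no flank and 1.02 to 1.24 when each replicate was left out. The distal ratio of 2.32, a measure chosen after seeing the data, was 1.10 among the peaks with higher signal and 1.87 to 2.65 without each replicate. The promoter share of 28.6% became 42.9% with promoters of 1000 bp, 50% among the peaks with higher signal, 16.7% with a 25 kb flank, 35.3% with a 100 kb flank and 0% with no flank. Bound Hox genes numbered 0, and 2 in the pooled relaxed list. The 6 weaker sites in all replicates became 1 when matched within 50 bp, 13 within 300 bp, 2 in the strongest 20000 entries of each list and 1 in the strongest 10000, and ranged from 8 to 13 without each replicate. The cause of these moves was not tested, apart from the smaller lists and regions that the settings themselves impose. The counts of sites found in all replicates, 10, and of sites with a consensus word, 11, stayed within 1.5 times under the alternatives run. The share of all optimal sites holding any consensus word was not computed. The count of 11 therefore shows nothing particular to these sites. No paired analysis was possible because there is 1 group. Unknown depth limits what a missing peak can mean.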
